A study of Mus musculus with 8 samples.

Results

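Within cultures of the mouse line SN4741 kept at 37°C, 786 of 7882 cells were set apart as the cells richest in 3 contractile transcripts, Acta2 (smooth muscle alpha-actin), Tagln (transgelin, an actin-binding protein of smooth muscle) and Myl9 (a regulatory light chain of smooth muscle and non-muscle myosin). The 19125 cells of the series come from 8 droplet libraries, of which the 4 libraries at 37°C held 8995. Cells were considered when at most 15% of their UMIs (unique molecular identifiers, each standing for 1 captured transcript) were mitochondrial, when they had between 200 and 6000 detected genes and when they had at least 5000 UMIs. The share of a cell's UMIs that came from the 3 genes together served as a score, and the top 10% of cells by this score in each library were chosen, giving 218, 159, 170 and 239 members in replicates 1 to 4. The comparison cells were the 4407 cells of the same libraries at or below the median score. Because 54.8% to 57.6% of the cells of a library carried no UMI of the 3 genes, all comparison cells had a score of 0, and the 2689 cells between both classes entered no main comparison.

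The line is labelled as wild-type neural precursor cells and was reported to derive from embryonic mouse substantia nigra as a clonal line. It is kept growing by a heat-sensitive viral T antigen placed under the tyrosine hydroxylase promoter. The 37°C cultures grew in medium with 10% serum, and the 39°C cultures were moved to 0.5% serum for 48 hours, so temperature, serum and time in the condition cannot be told apart. The p-values measure how far the within-library differences between classes vary from library to library. The labels do not say whether libraries of 1 temperature came from separate cultures, so this spread may be technical. Libraries at 37°C held 29116884 to 33652656 UMIs, of which the members' sums took 2934954 to 3310337 and the comparison cells' sums 13000282 to 14425064. At most 5 cell barcodes were shared by any pair of libraries.

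The score separated members from their neighbours without a gap. The lowest member had 0.0808%, 0.0977%, 0.0824% and 0.115% of its UMIs from the 3 genes in replicates 1 to 4, and the highest cell just outside had 0.0803%, 0.0950%, 0.0818% and 0.115%. The median member reached 0.146% to 0.204% and the highest 0.796% to 1.02%, so the class is a range at the upper end of a continuous score. Within 10% of the limit of their library lay 75 members and 99 cells outside. Members held 65.2% to 71.9% of all UMIs of the 3 genes and 10.7% to 11.5% of all UMIs of the cells considered. At least 98.8% of the members of each library had an Acta2 UMI, 70.7% to 78.0% had a Tagln UMI and 60.0% to 67.3% had a Myl9 UMI. All 3 transcripts were found in 43.1% to 54.1% of the members.

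Smooth muscle alpha-actin, transgelin and the myosin light chains belong to a group of genes that serum response factor (SRF) switches on together with its actin-regulated cofactors, the MRTF proteins. SRF binds a short palindromic element, the CArG box, which is common in the promoters of actin and contractile genes. The same genes rise in fibroblasts that turn into contractile myofibroblasts under TGF-beta or mechanical load, a setting in which the YAP coactivator and its TEAD partners are also active.

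The promoter sequences below show where CArG boxes and the TEAD hexamer GGAATG lie in 2 of the ranking genes and in 3 genes that were not used for the ranking. Sequences are RefSeq windows of the GRCm38.p6 build ahead of the annotated start, printed from 5′ to 3′ on the strand of the gene, with CArG boxes and TEAD hexamers in capitals. CArG boxes were taken with up to 1 mismatch, both strands were searched, and the hexamer was also searched as its reverse complement CATTCC. Myl9 is shown from chr2:156775214-156775419 on the + strand, Cnn2 (calponin 2) from chr10:79988350-79988583 on the + strand and Actg1 (cytoplasmic gamma-actin) from chr11:120348543-120348745 on the - strand, each up to the first annotated exon base.
Myl9 promoter: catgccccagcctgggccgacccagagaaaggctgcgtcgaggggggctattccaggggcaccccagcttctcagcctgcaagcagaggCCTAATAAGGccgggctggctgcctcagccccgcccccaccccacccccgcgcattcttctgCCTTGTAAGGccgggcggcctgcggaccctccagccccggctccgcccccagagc
Cnn2 promoter: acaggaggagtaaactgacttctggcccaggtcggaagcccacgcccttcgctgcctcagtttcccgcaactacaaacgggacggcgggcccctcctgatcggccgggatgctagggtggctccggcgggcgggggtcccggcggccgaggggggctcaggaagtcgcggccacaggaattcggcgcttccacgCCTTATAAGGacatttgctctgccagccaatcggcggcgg
Actg1 promoter: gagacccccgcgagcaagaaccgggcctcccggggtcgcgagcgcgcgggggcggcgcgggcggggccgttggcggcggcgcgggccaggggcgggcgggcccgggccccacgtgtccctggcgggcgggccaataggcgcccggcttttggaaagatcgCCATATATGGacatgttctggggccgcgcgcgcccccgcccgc
In Myl9, the first box in this window is a perfect match that begins 117 bases before the first annotated exon base and the second, 55 bases before it, has 1 mismatch. The perfect boxes of Cnn2 and Actg1 begin 40 and 43 bases before their first annotated exon base. The windows of Acta2 (chr19, - strand) and Ankrd1 (a stretch-responsive ankyrin repeat protein and YAP target, chr19, - strand) overlap an annotated exon, so stretches of 30 bases around each motif are shown, from chr19:34255502-34255531, chr19:34255438-34255467 and chr19:34255388-34255417 for Acta2 and from chr19:36120037-36120066 and chr19:36119950-36119979 for Ankrd1.
Acta2 stretch a: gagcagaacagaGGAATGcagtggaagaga
Acta2 stretch b: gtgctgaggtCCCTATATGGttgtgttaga
Acta2 stretch c: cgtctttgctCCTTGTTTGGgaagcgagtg
Ankrd1 stretch a: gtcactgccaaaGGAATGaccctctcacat
Ankrd1 stretch b: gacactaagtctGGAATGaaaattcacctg
Both boxes of Acta2 have 1 mismatch. Of all 32851 RefSeq windows of 250 bases, 1.47% held a perfect CArG box, 18.6% a box with up to 1 mismatch and 12.6% the TEAD hexamer. Of the 42 windows found for 32 of the 37 listed contractile and SRF-MRTF genes, 11 held a perfect box (26.2%). This list was drawn up from genes known for such regulation, so the share describes the list and is not evidence from these cells. Windows were found for 15 of 20 listed YAP and TEAD targets, for 495 of the 698 genes that were higher by over 0.5 on the log2 scale in members and for 367 of the 476 that were lower by that much, which is under 80% of the genes of each set, so that no share is given for them. A match is a description of the letters only.

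The 3 ranking genes chose the cells, so their levels in members are a description without a test. Acta2 reached 1403, 1533, 1274 and 1648 counts per 1000000 UMIs (CPM) in the members of replicates 1 to 4, Tagln 533.8, 660.7, 465.4 and 606.5 CPM, and Myl9 144.4, 149.9, 126.7 and 131.2 CPM. When the UMIs of each cell were split at random into 2 parts and cells were ranked on 1 of them, the members' level in the other part was 1389 ± 164 CPM for Acta2 (SD, n = 4), 569.1 ± 74.4 CPM for Tagln and 136.9 ± 11.3 CPM for Myl9. In that part the comparison cells held 14.3 ± 3.30, 7.83 ± 3.22 and 3.76 ± 0.504 CPM. The members' levels in UMIs not used for choosing them differed from those above by less than 1 SD.

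Each ranking gene was also followed where the cells were ranked by 1 of the others, as a description without a test, since the 3 genes together chose the members. Among the top 10% of cells by Acta2 alone, Tagln stood at 467.7, 579.3, 346.3 and 501.3 CPM in replicates 1 to 4, against 20.9, 15.5, 19.5 and 24.9 CPM in the cells at or below the median, which is 4.53 ± 0.0734 (SE) as a log2 fold change. Myl9 was higher by 4.73 ± 0.0796 on the log2 scale in the same ranking. Ranking by Tagln alone gave log2 fold changes of 3.08 ± 0.0505 for Acta2 and 2.64 ± 0.0776 for Myl9, and ranking by Myl9 alone gave 3.29 ± 0.0369 for Acta2 and 2.58 ± 0.0734 for Tagln. All 6 differences had the same direction in 4 of 4 libraries.

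To see whether other genes moved along the score or only at its top, the cells with a score above 0 were put into 5 bins of equal size. Fhl1, a LIM-domain protein of muscle, went from 184.2 CPM in cells without a score UMI to 225.0, 255.6, 297.4, 346.7 and 496.4 CPM from the lowest to the highest bin. The cyclin gene Ccnd2 went from 70.6 to 117.2, 138.0, 163.5, 187.0 and 240.6 CPM, and the metallothionein gene Mt2 from 112.7 to 94.9, 90.5, 80.7, 67.4 and 43.9 CPM. The means of Fhl1, Ccnd2 and Mt2 over 4 libraries changed in 1 direction over the whole score, which other genes did not all do. Synm, an intermediate filament gene, went from 83.8 to 92.8, 68.3, 72.1, 75.6 and 43.4 CPM. The lysyl oxidase gene Lox went from 47.0 to 78.8, 70.5, 93.7, 94.3 and 138.2 CPM. Nes, the gene of the neural precursor filament nestin, rose most at the first step, from 329.0 to 525.8 CPM, and reached 752.0 CPM in the top bin. The lowest of the 5 bins had a median score of 0.00531% to 0.00847% of UMIs, which 1 UMI gives only in deep cells. Cells without a score UMI had a median of 9178 to 13471 UMIs. The bins were not matched for depth, so this step also sets cells of unlike depth side by side.

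**Figure D1:**
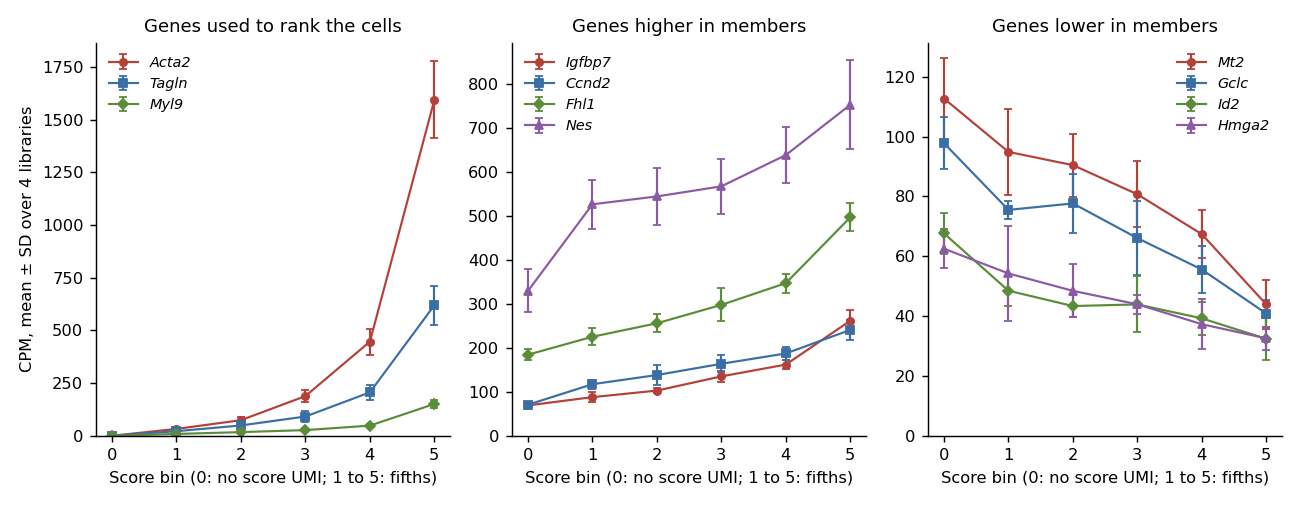
Levels of 11 genes (CPM, mean ± SD over the 4 libraries at 37°C) in cells without a UMI of the ranking genes (bin 0) and in 5 equal bins of cells of rising score. The left panel shows the genes that set the bins, which climb by construction, while the other panels show genes not used, such as Fhl1 climbing from 184.2 to 496.4 CPM and Mt2 descending from 112.7 to 43.9 CPM.

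Members were deeper in UMIs than comparison cells in all 4 libraries. Their median UMI number was 14596.5, 17964, 17027 and 11565 in replicates 1 to 4, against 10113.5, 13415.5, 13471 and 9178 in the comparison cells. The mean difference was 3744 ± 1012 UMIs (SD over libraries, n = 4). A two-sided exact sign-flip permutation test gave p = 0.13, the smallest that 4 libraries allow (adjusted p = 0.175 over 7 measures). The rule for choosing the classes favours this difference, since a shallow cell more readily lacks any UMI of the ranking genes. The test cannot separate depth from this rule. Ranking on cells thinned to 5000 UMIs left a mean difference of 2785 UMIs. With every cell thinned to 5000 UMIs, members had 2149 ± 19.2 detected genes and comparison cells 2157 ± 18.4 (exact sign-flip permutation test, p = 0.25). The mitochondrial share was 7.30% ± 0.203 in members and 7.77% ± 0.217 in comparison cells, and was lower in the members of 4 of 4 libraries (exact permutation p = 0.13). The part of depth in the gene results was examined by ranking on thinned cells and by matching comparison cells for phase and UMI number, with the values given beside the counts below.

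The shares of cells assigned to G1 and to S phase differed in 1 direction in all 4 libraries, which cannot bring an exact test under 0.05. At 5000 UMIs per cell, the G1 share of members was 34.9%, 32.7%, 35.9% and 30.1% in replicates 1 to 4 against 29.1%, 25.7%, 23.9% and 20.5% of comparison cells, and the S share was 18.3%, 20.8%, 21.2% and 17.2% against 24.4%, 30.2%, 27.9% and 29.4%. Both differences held in 4 of 4 libraries, at 8.57 ± 2.76 percentage points for G1 and -8.60 ± 2.81 for S (exact permutation p = 0.13 for each, the smallest possible, adjusted p = 0.175 over 7 measures). The G2M share was 47.2% ± 4.05 in members and 47.2% ± 2.57 in comparison cells. Without thinning, the differences were 9.98 ± 3.30 points for G1 and -8.99 ± 3.85 for S.

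Genes were compared on UMI counts summed per library and class, with the library as a block and without the 3 ranking genes. Of 12082 genes tested, 2113 were higher (17.5%) and 1658 lower (13.7%) in members at an adjusted p under 0.05 in edgeR, while 698 (5.78%) were higher and 476 (3.94%) lower by more than 0.5 on the log2 scale. With comparison cells matched for phase and UMI number, 1657 were higher and 1336 lower of 11080 tested, and with cells thinned to 5000 UMIs before ranking 1921 were higher and 1485 lower of 12320. Among G1 cells alone, where sums were smaller, 1110 were higher and 651 lower of 10515 tested, and DESeq2 on all cells called 1302 and 726. Scaling by plain totals in place of TMM factors moved the balance to 1718 higher and 2277 lower. The values of all libraries did not overlap between classes for 3079 genes (25.5%). Genes of chromosomes 9, 6 and 18 had median log2 ratios of 0.22, 0.19 and 0.17 where the other chromosomes lay between -0.060 and 0.068, and the part of these chromosomes in the counts was not tested. Chromosome copy number was not measured here.

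Genes of the contractile apparatus and other SRF-MRTF targets were mostly higher in members. Of 37 listed genes, 33 could be tested, 27 were higher, 1 lower and 5 not called, and the median log2 fold change was 0.83 against -0.011 over all genes tested. In 27 of them the libraries of both classes did not overlap, beside 17.5% of all genes called higher and 25.5% without overlap. Fhl1 measured 452.3, 466.9, 494.5 and 530.0 CPM in the members of replicates 1 to 4 and 168.8, 179.4, 183.6 and 199.7 CPM in comparison cells. This is a log2 fold change of 1.41 ± 0.0320 with an adjusted p of 7.23e-33 in edgeR. All member values lay above all comparison values.
Csrp1, a LIM-domain protein of the actin cytoskeleton, stood at 349.2, 367.3, 398.4 and 419.7 CPM against 157.5, 152.1, 158.2 and 169.6 CPM, a log2 fold change of 1.27 ± 0.0359. Cnn2, the calponin isoform of non-muscle cells whose promoter is shown above, stood at 605.6, 572.4, 586.3 and 636.6 CPM against 258.7, 266.3, 270.9 and 289.1 CPM, a log2 fold change of 1.15 ± 0.0299. In both genes the classes were well apart in every library. Among the abundant members of the list, Cald1 (caldesmon) was at 2735 ± 122 CPM against 1256 ± 72.8, Tpm1 (tropomyosin 1) at 5148 ± 267 against 2649 ± 166, Tpm2 (tropomyosin 2) at 432.8 ± 25.4 against 196.7 ± 8.53 and Myl6 (the essential myosin light chain) at 2775 ± 204 against 1557 ± 50.04 (SD, n = 4). The regulators themselves had log2 fold changes of 0.61 ± 0.106 for Srf, which was called, and of 0.095 ± 0.0988 for Mkl1 and 0.19 ± 0.0959 for Mkl2, the genes of both MRTF proteins, which were not called.

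Markers of fully mature smooth muscle were rare. Of 8 such markers, 5 could be tested, 3 were higher and 0 lower in edgeR, beside 17.5% and 13.7% over all genes tested. At an unadjusted p under 0.05, 0 were lower as well, and DESeq2 called 2 higher and 0 lower. Actg2 (enteric gamma-actin, 71 UMIs in all members) and Lmod1 (leiomodin 1, 80 UMIs) had log2 fold changes of 4.93 ± 0.407 and 3.79 ± 0.323, at 5.92 ± 2.02 and 6.69 ± 2.76 CPM in members. Acta1, the skeletal muscle actin, had 97 UMIs in members and a log2 fold change of 3.60 ± 0.344. Actg2 and Acta1 are close copies of Acta2, and reads of a transcript as abundant as Acta2 could be counted under them, so both values are uncertain.
Cnn1, the smooth muscle calponin, had 6 UMIs in the members and 4 in the comparison cells of all 4 libraries, Myh11 (smooth muscle myosin heavy chain) had 2 and 7, and Myocd (myocardin, the smooth muscle SRF cofactor) had 2 and 16, and none could be tested. Des (desmin, a muscle intermediate filament) was the third marker called higher, with a log2 fold change of 0.76 ± 0.208 at 5.99 ± 0.557 CPM in members, and Smtn (smoothelin) and Synpo2 (synaptopodin 2) were not called, at 15.7 ± 3.30 and 1.096 ± 0.782 CPM. Mylk, the myosin light chain kinase, which is on the contractile and not on this list, was lower in members, at 8.18 ± 1.43 against 12.5 ± 1.00 CPM (log2 fold change -0.62 ± 0.151, edgeR adjusted p = 0.00126). The summed level of the 8 markers was 29.3 to 39.5 CPM in members and 21.8 to 26.4 CPM in comparison cells. Of the 8 markers, Myh11, Cnn1 and Myocd were near 0 in cells chosen by Acta2, Tagln and Myl9.

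The general isoforms, used by most cells, were followed in full. Of 10 listed genes, 9 could be tested, 7 were higher and 2 lower, beside 17.5% higher and 13.7% lower over all genes tested. Actg1 was at 5737, 5724, 5977 and 6343 CPM in the members of replicates 1 to 4 and at 2683, 2712, 2874 and 3298 CPM in comparison cells, a log2 fold change of 1.04 ± 0.0190. Actb, cytoplasmic beta-actin, had a log2 fold change of 0.87 ± 0.0171 from 4238 ± 363 to 7729 ± 426 CPM. The classes did not overlap in either gene.
Tpm4 (0.77 ± 0.0302), Myl12a (0.58 ± 0.0283), Tagln2 (0.54 ± 0.0289) and Cnn3 (0.47 ± 0.0292) were also higher on the log2 scale, and encode a tropomyosin, a non-muscle myosin light chain, the broadly expressed transgelin and the acidic calponin. Tpm3 had a log2 fold change of 0.11 ± 0.0360 and was called in 11 of 20 alternative settings. Myl12b, the near-identical neighbour of Myl12a, was lower by -0.19 ± 0.0441 and Myh10, a non-muscle myosin heavy chain, by -0.23 ± 0.0549 on the log2 scale. Reads of Myl12a and Myl12b may be split by the counting, so their opposite directions are uncertain.

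**Figure D2:**
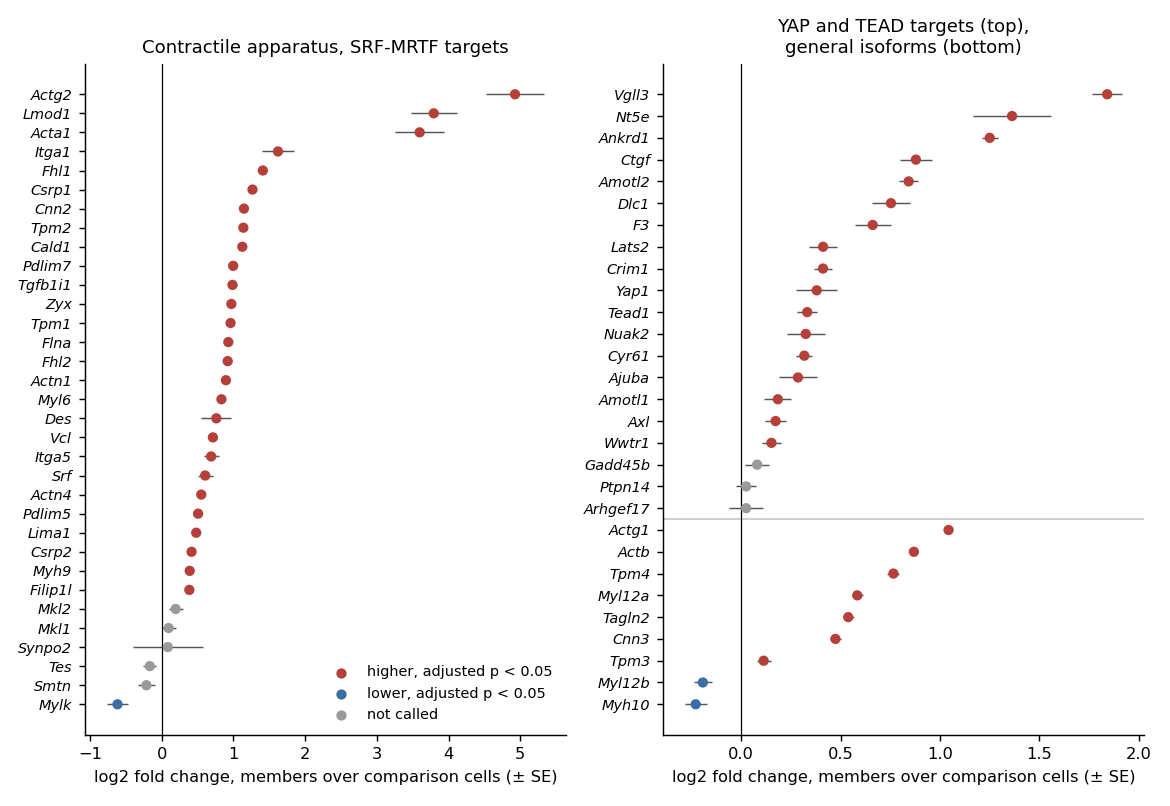
Log2 fold changes of members over comparison cells at 37°C (point, edgeR; bar, SE) for the tested contractile and SRF-MRTF genes on the left and for YAP and TEAD targets and general isoforms on the right. Of the 33 genes on the left, 27 lie to the right of 0 and were called higher, and Mylk is called lower.

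Targets of YAP and TEAD were higher or not called. Of 20 genes tested, 17 were higher and 0 lower in edgeR, with a median log2 fold change of 0.36. Over all genes tested, 17.5% were higher and 13.7% lower. At an unadjusted p under 0.05, 0 were lower as well, and DESeq2 called 11 higher and 0 lower. Vgll3, a TEAD cofactor, stood at 62.7, 66.5, 68.8 and 62.5 CPM in members and 18.1, 17.9, 17.6 and 19.1 CPM in comparison cells, a log2 fold change of 1.84 ± 0.0761 with an edgeR adjusted p of 1.87e-23. Ankrd1, with its pair of hexamers shown above, stood at 224.1, 263.9, 232.5 and 257.4 CPM against 92.1, 114.0, 93.7 and 111.7 CPM, a log2 fold change of 1.25 ± 0.0408. Ctgf, a matricellular protein, had a log2 fold change of 0.88 ± 0.0818. All 3 genes were higher in 4 of 4 libraries.

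The TGF-beta and myofibroblast list followed the same direction. Of 22 genes tested, 18 were higher and 2 lower, beside 17.5% and 13.7% over all genes tested. The median log2 fold change was 0.43. Lox, the collagen cross-linking lysyl oxidase, measured 150.8, 118.7, 115.7 and 144.6 CPM in members and 49.9, 40.2, 46.9 and 49.5 CPM in comparison cells, a log2 fold change of 1.505 ± 0.0567. Fn1 (fibronectin) and Fbn1 (fibrillin 1) had log2 fold changes of 0.98 ± 0.0369 and 0.89 ± 0.0505, at 329.5 ± 9.14 and 187.6 ± 9.80 CPM in members. The 2 genes lower in members were Tgfb1, a TGF-beta ligand, at -0.30 ± 0.0622 and Tgfbi, a secreted matrix protein, at -1.15 ± 0.367 on the log2 scale, the latter with only 15 UMIs in members.

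Of 24 genes tested for collagens and their processing, 20 were higher and 0 lower in edgeR, and the median log2 fold change was 0.68. The shares over all genes tested were 17.5% higher and 13.7% lower. At an unadjusted p under 0.05, 21 were higher and 1 lower, and DESeq2 called 18 higher and 0 lower. Col1a1, a chain of the main fibrillar collagen, was at 1369, 1338, 1352 and 1238 CPM in members and at 872.8, 793.1, 856.3 and 890.8 CPM in comparison cells, a log2 fold change of 0.63 ± 0.0270. The classes did not overlap. Loxl2 (a lysyl oxidase relative), Col3a1 (collagen III) and P3h3 (a collagen prolyl hydroxylase) had larger log2 fold changes at low levels, of 1.76 ± 0.179, 1.15 ± 0.135 and 0.91 ± 0.141 at 12.4, 17.7 and 13.8 CPM in members. Among G1 cells alone Loxl2 was at 2.72.

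The largest rises among genes with at least 50 CPM in either class lay mostly outside these lists. Igfbp7, a secreted binder of insulin-like growth factors, stood at 256.7, 282.7, 238.4 and 235.3 CPM in the members of replicates 1 to 4 and at 70.5, 66.0, 69.3 and 68.4 CPM in comparison cells. This is a log2 fold change of 1.88 ± 0.0471 with an adjusted p of 3.16e-31 in edgeR. Ccnd2, a D-type cyclin that drives G1, stood at 250.8, 238.1, 205.9 and 247.5 CPM against 68.8, 76.6, 64.7 and 70.3 CPM, a log2 fold change of 1.75 ± 0.0457. In both genes every member value lay far above every comparison value.
Ddah1, which breaks down an inhibitor of nitric oxide synthase, had a log2 fold change of 1.73 ± 0.0644, and Sprr1a, a small proline-rich protein, 1.63 ± 0.0946. Ogn, the small leucine-rich proteoglycan osteoglycin, had 1.55 ± 0.0677 and Hacd1, an enzyme of very long chain fatty acid synthesis expressed in muscle, 1.48 ± 0.0586. The members of these 4 genes ranged over 121.7 to 136.0, 69.9 to 122.0, 72.3 to 99.4 and 96.1 to 123.6 CPM, above all comparison values. Lox and Vgll3, given above, complete the 8 largest rises.

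The 8 largest falls included the metallothioneins Mt1 and Mt2, which bind zinc and copper. Mt2 stood at 50.2, 54.7, 44.6 and 35.0 CPM in members and 106.7, 124.8, 120.8 and 95.4 CPM in comparison cells, a log2 fold change of -1.28 ± 0.0644 with an edgeR adjusted p of 2.54e-20. Mt1 stood at 295.3, 311.6, 250.7 and 177.6 CPM against 541.6, 547.5, 483.1 and 394.5 CPM, a log2 fold change of -0.93 ± 0.0367. Both were lowest in replicate 4 in either class, and the classes did not overlap.
Gclc, the catalytic subunit of the enzyme that limits glutathione synthesis, stood at 51.7, 34.1, 41.6 and 43.5 CPM against 103.9, 97.9, 101.9 and 84.7 CPM, a log2 fold change of -1.18 ± 0.0708. Id2, an inhibitor of helix-loop-helix factors, fell from 67.2 ± 6.86 to 33.7 ± 6.53 CPM (log2 fold change -0.99 ± 0.0743) and Hmga2, a chromatin protein of embryonic and precursor cells, from 62.1 ± 6.51 to 33.2 ± 3.13 CPM (-0.90 ± 0.0796). Synm, the intermediate filament protein synemin, had a log2 fold change of -0.95 ± 0.0670, Adh7, a retinol-oxidizing alcohol dehydrogenase, -0.93 ± 0.0739, and Lrrc28, of which little is known, -0.85 ± 0.0841. Among G1 cells alone Lrrc28 was at -0.37 and no longer called.

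**Figure D3:**
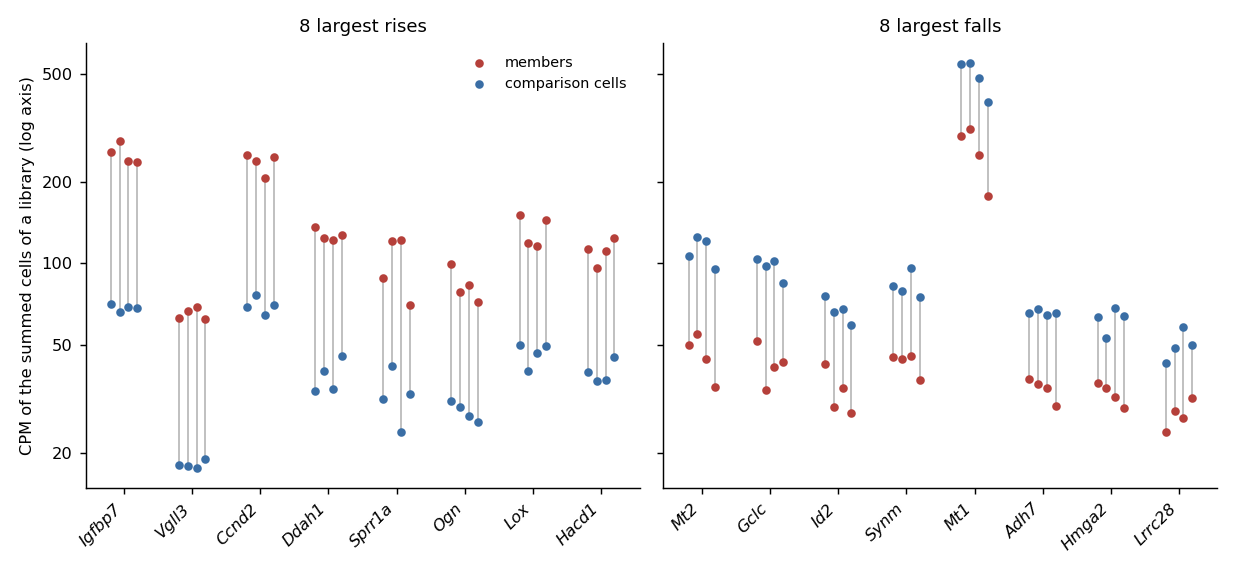
CPM (log axis) of the 8 largest rises and the 8 largest falls in each of the 4 libraries at 37°C, with replicates 1 to 4 from left to right within a gene, members in red and comparison cells in blue. The members of each library lie on the same side of its comparison cells, which the rule for naming these 16 genes required, as for Igfbp7 with 235.3 to 282.7 against 66.0 to 70.5 CPM.

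Genes of DNA replication and mitosis were lower or not called in members. Of 25 S phase genes tested, 20 were lower and 0 higher (median log2 fold change -0.29), and of 25 mitotic genes 15 were lower and 0 higher (median -0.22). Over all genes tested, 13.7% were lower and 17.5% higher. At an unadjusted p under 0.05 in edgeR, 1 S phase gene and 0 mitotic genes were higher, and DESeq2 called 0 higher in both lists, with 17 and 11 lower. Mcm7, a subunit of the replicative helicase, was at 155.2, 160.9, 153.0 and 139.2 CPM in members and 201.9, 228.6, 214.9 and 219.5 CPM in comparison cells, a log2 fold change of -0.51 ± 0.0428. Its classes did not overlap. Uhrf1, which maintains DNA methylation, and Cdc6, which licenses origins, were at -0.58 ± 0.0710 and -0.60 ± 0.107. Cdc20 and Ect2, which act in mitotic exit and cytokinesis, and Cenpf, a kinetochore protein, were each at -0.51 on the log2 scale.
Of these genes, 21 of the S phase list and 20 of the mitotic list also serve to assign the phases, so the phase shares given above rest largely on the same counts. Of the 4 S phase and 5 mitotic genes that do not serve for this, 3 and 3 were lower. Among cells assigned to G1 alone, a choice made in part by low values of Cdc6, Cdc20, Uhrf1, Ect2 and Cenpf themselves, these 5 genes were not called, with Cdc6 and Cdc20 at 0.11 each. Mcm7, which does not serve to assign phases, was still lower there, at -0.39. Of 15 CDK inhibitors and p53 targets, 7 were higher and 1 lower, beside 17.5% and 13.7% over all genes tested. Cdkn1a, the CDK inhibitor p21, had a log2 fold change of 0.28 ± 0.0231 at 1416 ± 129 against 1167 ± 87.2 CPM and Ccng1 one of 0.21 ± 0.0272, while Gdf15, a stress-induced secreted factor, was lower at -0.68 ± 0.0571. The rise of Ccnd2 stood beside the fall of S phase genes in the same libraries.

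The immediate-early genes, which serum and growth factors switch on within minutes, did not move in 1 direction. Of 20 genes, 4 were higher, 6 lower and 10 not called, with a median log2 fold change of -0.086, beside 17.5% higher and 13.7% lower over all genes tested, so the share of higher genes was near that of all genes. Klf2, a transcription factor induced by flow and serum, was at 22.6, 11.8, 16.6 and 20.4 CPM in members against 6.50, 9.42, 7.54 and 10.95 CPM, a log2 fold change of 1.07 ± 0.150. Dusp1, a MAP kinase phosphatase, was at 0.71 ± 0.0547 and Atf3, a stress-induced factor, at -0.76 ± 0.155. Among G1 cells alone Klf2 was at 1.87 and Dusp1 at 0.47, both called, and Atf3 was not called, at -0.52. Egr1 and Fos, both classical SRF targets with ternary complex factors, had log2 fold changes of -0.17 ± 0.0417, called, and -0.35 ± 0.172, not called.

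The line is labelled as neural precursor, and the precursor genes were divided. Of 16 listed genes, 10 could be tested, 2 were higher and 6 lower, beside 17.5% higher and 13.7% lower over all genes tested. The share of higher genes was thus near that of all genes. The 2 higher genes were Nes and Hes1, the latter with a log2 fold change of 0.17 ± 0.0565. Nes was at 754.8, 662.9, 675.1 and 868.8 CPM in members and 305.7, 313.4, 289.3 and 398.4 CPM in comparison cells, a log2 fold change of 1.18 ± 0.0304 with an edgeR adjusted p of 7.44e-31. Its lowest member value was above its highest comparison value. The 6 lower genes were Id1, Id2, Id3, Hmga2, Notch1 and Sox2, of which Sox2, a precursor transcription factor, was at 40.5 ± 5.40 CPM in members against 61.4 ± 2.73 (log2 fold change -0.60 ± 0.0748).

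Markers of other cell types were checked for the whole list in each case, beside 17.5% higher and 13.7% lower over all genes tested. Of 9 mural cell (pericyte) markers, Kcnj8 and Abcc9 were at 0 and 5 in all were under 1 CPM over members and comparison cells together, while Pdgfrb, the PDGF receptor of mural and mesenchymal cells, was at 113.8, 142.7, 115.4 and 115.4 CPM in members against 68.7, 67.5, 61.4 and 62.3 CPM (log2 fold change 0.90 ± 0.0556). The summed level of the list was 198.5 to 217.1 CPM in members and 131.9 to 147.2 CPM in comparison cells. Mcam and Cspg4, a cell adhesion molecule and a proteoglycan of mural cells, had log2 fold changes of 0.88 ± 0.155 and 0.63 ± 0.0867 and were not called among G1 cells alone. Of the 4 mural markers tested, 3 were higher and Notch3 was not called. Notch3 was at 43.5 ± 5.52 CPM in members against 41.4 ± 3.61 (log2 fold change 0.071 ± 0.0770). Mcam and Cspg4 lie on chromosome 9 and Pdgfrb on chromosome 18, whose genes had the raised median ratios given above. The part of these chromosomes in the values was not tested.
Of 9 fibroblast markers, Fap was at 0 and 5 in all were under 1 CPM, among them Dcn, Lum and Thy1, and 4 of 5 tested were higher, Col1a1 and Col3a1 as above and Pdpn (podoplanin) by 0.88 ± 0.137, which was at 0.49 and not called among G1 cells alone. Of 9 neuronal markers, Snap25 and Dcx were at 0 and 6 in all were under 1 CPM, while Map2, a microtubule-associated protein, and Stmn2, a microtubule regulator of growing axons, were higher by 1.04 ± 0.0641 and 0.96 ± 0.0604. Stmn2 was at 200.3, 121.5, 141.7 and 159.6 CPM in members against 82.4, 73.1, 68.7 and 96.8 CPM, with no overlap, and Tubb3 (neuronal beta-tubulin) was not called, at -0.025 ± 0.1247.
Endothelial markers (6 listed) were at most at 1.32 CPM in sum, and 4 of them, among them Cdh5 and Kdr, were at 0. Of 6 immune markers, 5 were under 1 CPM, and Cd68, which is also a lysosomal protein of other cells, was at 7.09 ± 0.987 CPM in members against 20.9 ± 1.97 (log2 fold change -1.56 ± 0.140). Of 9 astrocyte and oligodendrocyte markers, Gfap, Olig1, Olig2 and Mog were at 0, and the glutamate transporter Slc1a3 was at 4.22 ± 1.35 against 15.9 ± 1.47 CPM (-1.91 ± 0.173). Of 10 striated muscle markers, Myod1 and Myf5 were at 0 and 6 in all were under 1 CPM. Of the 4 tested, Acta1 was called higher, with the uncertainty given above, and Ckm (muscle creatine kinase), with 4 UMIs in members, lower. DESeq2 called 1 gene of this list higher and 0 lower.

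**Figure D4:**
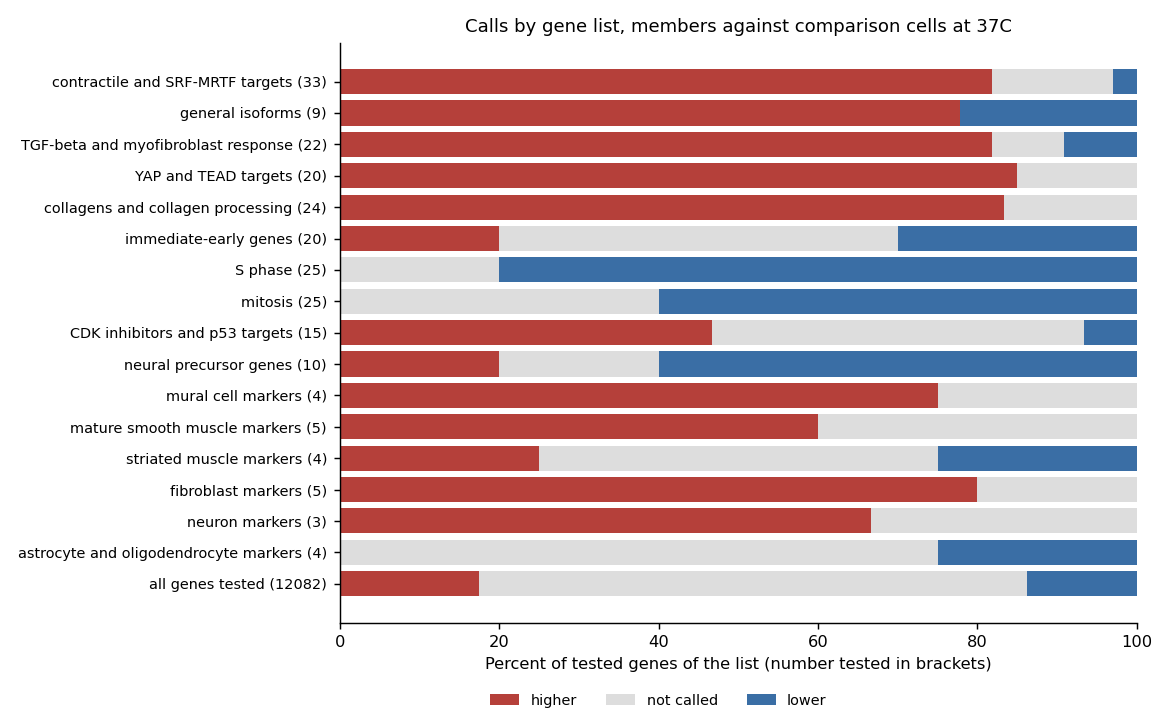
Percent of the tested genes of each list that were higher (red), not called (grey) or lower (blue) in members against comparison cells at 37°C, with the number tested in brackets. Contractile, YAP and TEAD, TGF-beta and collagen genes are mostly red and S phase genes mostly blue, beside 17.5% higher and 13.7% lower over all genes tested.

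At 39°C cells as rich in the 3 transcripts were few. The mean of the lowest member scores at 37°C, 0.0941% of UMIs, was passed by 9.25%, 10.1%, 8.34% and 11.7% of the cells in replicates 1 to 4 at 37°C, a share that the choice of the top 10% fixed, and by 0.632%, 0.923%, 0.605% and 0.885% of the cells at 39°C (6, 22, 14 and 22 cells). No test is given for this difference, since the limit was set on the 37°C libraries. With every cell thinned to 5000 UMIs the 39°C share was 0.862% ± 0.153 (SD, n = 4). Only 8.49% to 11.9% of 39°C cells had any UMI of the 3 genes, and no cell type that should lack them was at hand to give the share that free RNA alone would leave.

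The top 10% of 39°C cells with at least 1 such UMI (94, 204, 207 and 211 cells) had a median of 2 UMIs of the 3 genes, against 25 to 34 in the members of the 37°C libraries, so both classes differ in strictness. Against cells without such a UMI, 1415 of 12464 genes were higher (11.4%) and 1161 lower (9.31%) at 39°C. Of the 671 genes that were higher by over 0.5 on the log2 scale at 37°C and tested at 39°C, 397 were higher and 3 lower there, and of the 463 lower ones 167 were lower and 4 higher. Igfbp7 had a log2 fold change of 1.80 at 39°C, Fhl1 one of 1.49, Cnn2 one of 1.25, Ankrd1 one of 1.21 and Nes one of 1.43. All 5 genes were called at both temperatures.
The difference of the log2 fold changes between temperatures passed the test for 1182 of 12324 genes (9.59%). Mt2, at -1.28 at 37°C, was at -0.11 at 39°C with an adjusted p of 1.04e-12 for the interaction in edgeR, and Vgll3 went from 1.84 to 0.81 (adjusted p = 2.50e-10). Uhrf1 was at -0.58 at 37°C and at 0.62 at 39°C, called at both. Actg1 had a larger log2 fold change at 39°C, of 1.37 against 1.04. The part of the looser 39°C class in these differences was not tested.

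**Figure D5:**
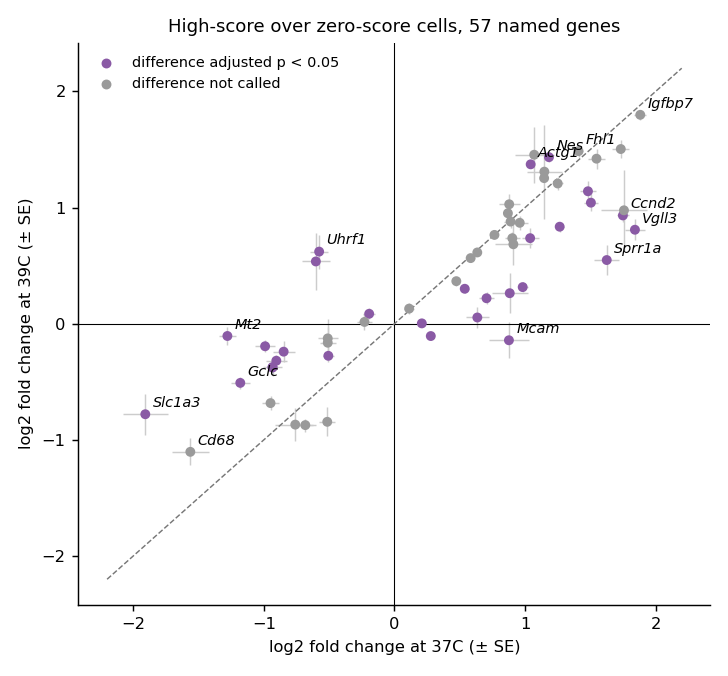
Log2 fold changes (± SE) of the 57 named genes at 37°C (members over comparison cells) and at 39°C (top 10% of cells with a ranking UMI over cells without one), with the dashed line marking equal values and purple points a difference between temperatures at an adjusted p under 0.05. Igfbp7 lies near the line at 1.88 and 1.80, while Vgll3, Ccnd2 and Sprr1a lie below it and Uhrf1 on opposite sides of 0.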

How the data were processed

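Single cells of SN4741 cultures were measured in 8 libraries with the Chromium 3' V3 kit. Per the labels, the authors made the matrices with Cell Ranger 3.0.1 on mm10, and deposited whole-number UMI counts for 31053 genes and 1167 to 3557 cells per library, with no normalization. Whether the counting used strand is not given in the sources used here. Following the limits of the study, cells were dropped for more than 15% mitochondrial UMIs (334 cells of the series), more than 6000 genes (440 cells) or fewer than 200 genes, and a minimum of 5000 UMIs was added, which left out 668 further cells at 37°C. With Scrublet, 2 cells scored over 0.5, too few for a working caller, and beyond the limit on genes no doublets were taken out. An alternative left out the highest scores at 0.8% per 1000 cells. The score was the share of UMIs from Acta2, Tagln and Myl9. Planned comparison cells were the lower part by this score, which came to all cells at 0. At 39°C the top 10% reached cells without a score UMI, so at least 1 such UMI was required there, which was not in the plan. The members and the lists were chosen with earlier results of these data known.

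Raw counts were summed per library and class. Genes with a mean of at least 5 counts per sum were tested with edgeR 4.0.16 (R 4.3.3; TMM factors, glmQLFit, glmQLFTest) with the library as a block and Benjamini-Hochberg adjustment, and called at an adjusted p under 0.05. SEs are those implied by the test. CPM are per 1000000 counts of tested genes scaled by the TMM factors, also in the score bins and where cells were ranked by 1 gene. Plain totals were used for the ranking genes in members and in the split UMIs, and for marker sums. Phases came from Seurat's lists (scanpy 1.11.5) on cells thinned to 5000 UMIs. Library values were compared with exact permutation tests (Python 3.11.15, numpy 2.4.6) over 16 sign flips. DESeq2 1.42.0 was an alternative.

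Genes were named by rule: the 8 largest rises and falls with at least 50 CPM in the higher class and the same direction in 4 of 4 libraries, up to 3 called genes with at least 10 CPM of each list, and all general isoforms. Other list genes named in the text were chosen after their values were seen, as were the 5 promoters and the split of each cell's UMIs. Of the list symbols, Mkl1, Mkl2, Ctgf, Cyr61 and P3h3 are the names used in the files. Replicate numbers were not used to pair libraries across temperatures in the main tests. The deviations of same-numbered libraries correlated at -0.105, -0.082, -0.079 and 0.195 over 10565 genes. These values cannot show whether same-numbered libraries shared a culture or batch. Gene positions are from GENCODE vM21. Promoter windows were matched by symbol or by a RefSeq synonym held by 1 gene alone. The T antigen transcript was not analysed here. The exact test planned for the share of cells over the 37°C limit is not reported, because that limit was set on the 37°C libraries.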

Additional observations from a re-analysis of the deposited data

Results flagged for a closer look

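Among 67 groups of 4 libraries tested for a library far from the others, 2 stood out. Chance alone gives about 1 in 20, so 2 of 67 is no more than that rate. Synm was at 37.0 CPM in the members of 37°C replicate 4, against 44.6 to 45.6 CPM in the other members' sums. Pdgfrb was at 142.7 CPM in the members of 37°C replicate 2, against 113.8 to 115.4 CPM in the others.

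For 29 of the 57 named genes, the log2 fold change between high-score and zero-score cells differed between temperatures in the edgeR interaction (adjusted p under 0.05), with the looser class at 39°C as described above. Given as the log2 fold change at 39°C minus that at 37°C, the differences below 0 were Vgll3 (-1.04), Ccnd2 (-0.82), Sprr1a (-1.09), Fn1 (-0.67), Mcam (-1.03) and Pdpn (-0.63), and closer to 0 Lox (-0.47), Hacd1 (-0.35), Csrp1 (-0.44), Tagln2 (-0.24), Dusp1 (-0.49), Cdkn1a (-0.39), Ccng1 (-0.21), Cspg4 (-0.59) and Map2 (-0.31). The differences above 0 were Mt2 (1.17), Gclc (0.66), Id2 (0.79), Lrrc28 (0.60), Cdc6 (1.13), Uhrf1 (1.19) and Slc1a3 (1.12), and closer to 0 Mt1 (0.55), Adh7 (0.55), Hmga2 (0.58), Actg1 (0.32), Myl12b (0.27), Mcm7 (0.22) and Nes (0.24). The fold changes of Uhrf1 had opposite signs at the 2 temperatures and passed the test at both, and those of Cdkn1a did so too, at 0.28 and -0.11.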

How the results depend on the processing

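DESeq2 called 1302 genes higher and 726 lower in members at 37°C, and G1 cells alone, with smaller sums and 10515 genes tested, gave 1110 and 651, against 2113 and 1658 in the main comparison. The other alternatives gave between 1657 and 2305 higher and between 1195 and 2277 lower, of which leaving out 1 library of the 4 gave 1714 to 1866 and 1336 to 1373, and leaving out the library term (no replicate block) gave 1675 and 1195. At 39°C, leaving out the library term gave 922 higher and 716 lower, against 1415 and 1161, and leaving out 1 library gave 1030 to 1283 and 777 to 1014. The difference between members and comparison cells in the G2M share, 0.028 points, turned to -1.41 when cells were thinned before ranking, to -3.01 with the top 5% of cells, to -0.99 without thinning of phases and ranged from -0.83 to 1.79 with 1 library left out. The difference in genes per cell at 5000 UMIs was 0 with the top 20% of cells, against -7.63 genes with the top 10%. None of these differences in phase or genes could pass 0.05 with 4 libraries. The difference between temperatures in the share of cells over the 37°C limit was 9.07 points, also when taken within replicate numbers (replicate block), and is given without a test, because the limit was set on the 37°C libraries, and it ranged from 8.46 to 9.57 with 1 library left out.

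Of 1143 values of named genes and levels under an alternative, 1122 kept their direction and their side of the threshold. In G1 cells alone, Cdc6 and Cdc20 turned from -0.60 and -0.51 to 0.11 and 0.11 on the log2 scale, neither of them called, and 10 other gene values lost their call. Of the 19 values that lost a call, 9 were of Tpm3. Levels of rare markers such as Actg2, Lmod1 and Loxl2 rest on few UMIs.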

Other observations

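Some genes under the 50 CPM used for naming differed more than those named above, and are given as values chosen after they were seen. Wisp2, a secreted protein of the CCN family, was at 44.5 CPM in members and 5.40 CPM in comparison cells, which is 3.04 ± 0.116 (SE) as a log2 fold change with an adjusted p of 1.34e-24 in edgeR. Serpinf1, which encodes the secreted factor PEDF, was at 21.7 against 2.63 CPM (log2 fold change 3.02 ± 0.164), and Runx1t1, a transcriptional corepressor, at 40.5 against 7.13 CPM (2.51 ± 0.112). All 3 were higher in 4 of 4 libraries. In the other direction, Tm4sf1, a membrane protein of the tetraspanin-like family, was at 3.84 against 39.1 CPM (-3.35 ± 0.155), lower in 4 of 4 libraries.

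Some genes were looked up singly after the value of Gclc was seen, so they are no list and carry no test as a group, and 13.7% of all genes tested were lower. Gsta4 (a glutathione transferase) had a log2 fold change of -1.52 ± 0.110, Nqo1 (a quinone reductase) of -0.89 ± 0.0884, Gstm1 (another glutathione transferase) of -0.56 ± 0.0419, Srxn1 (sulfiredoxin) of -0.57 ± 0.0850, Gsr (glutathione reductase) of -0.48 ± 0.0780 and Txnrd1 (thioredoxin reductase) of -0.40 ± 0.0428, each lower in the members of 4 of 4 libraries at an adjusted p under 0.05 in edgeR. Gclm, the partner subunit of Gclc, and Hmox1 (heme oxygenase 1) were not called, at -0.021 ± 0.0540 and 0.019 ± 0.0692. Foxa2, a transcription factor of floor plate and dopaminergic precursors, was at 7.66 against 18.1 CPM, a log2 fold change of -1.24 ± 0.141.

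The differences were not spread evenly over chromosomes. Over genes with at least 20 CPM, the median log2 ratio of members to comparison cells was 0.22 ± 0.028 for the 333 genes of chromosome 9 (mean ± SD over 4 libraries), 0.19 ± 0.012 for the 270 genes of chromosome 6 and 0.17 ± 0.025 for the 158 genes of chromosome 18. The other chromosomes lay between -0.060 and 0.068. Above 0 lay 87.4%, 85.2% and 81.6% of the genes of chromosomes 9, 6 and 18. In G1 cells the medians of the fitted log2 fold changes were 0.21, 0.20 and 0.16 and against comparison cells matched in phase and UMIs 0.21, 0.22 and 0.17. The share of UMIs from chromosome 9, without Tagln, went from 5.14% ± 0.091 in cells without a score UMI to 5.997% ± 0.065 in the top bin, and that of chromosome 6 from 3.06% ± 0.022 to 3.57% ± 0.022. At 39°C the medians were 0.066, 0.071 and 0.047. These chromosomes were picked after their values were seen, genes of 1 chromosome are not independent of each other, and no test is given. Of the 57 named genes, Gclc, Mcam and Cspg4 lie on chromosome 9, Ccnd2 and P3h3 on chromosome 6, and Lox and Pdgfrb on chromosome 18. The ranking gene Tagln lies on chromosome 9. Chromosome copy number was not measured here, and its part in these values was not tested.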
